A study of Saccharomyces cerevisiae with 46 samples.

Results

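Adding motif H on both sides of motif T in a yeast terminator was examined by setting modHTH reporters against modNTN reporters. Members were chosen by their labels alone: 12 samples of the 46 listed, 6 with modHTH and 6 with modNTN. Each is a culture of budding yeast strain BY4741 with a low copy plasmid that carries an mCherry reporter gene, coding for a red fluorescent protein, and the URA3 marker. modHTH terminators hold motif H, motif T and motif H at 3 insertion sites of 9 bp, while modNTN terminators hold a random sequence, motif T and a random sequence there. Both were placed in 3 contexts, each with 2 modHTH and 2 modNTN libraries: pRPS3-tRPS3 with RPS3 promoter and terminator, pPGK1-tRPS3 with the PGK1 promoter, and pTSA1-tTSA1. All cultures grew for 4 h at 30 °C in medium lacking uracil to an OD600 of 0.7, and total RNA was sequenced from the 3′ end with QuantSeq REV. The labels do not say whether 2 libraries of a construct came from separate cultures, so p-values measure the spread between these libraries, which may be technical.

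A terminator carries the sequence that directs cleavage of the nascent transcript and addition of its poly(A) tail, and in yeast this sequence largely lies upstream of the cleavage site. The same stretch becomes the 3′ UTR of the mRNA, where RNA-binding proteins such as the Puf family, which recognise elements that begin with UGUA, as motif T does in its DNA letters, act on stability and translation. A change there can therefore touch both where a transcript ends and how much of it is present. RPS3 encodes a small-subunit ribosomal protein, TSA1 a thioredoxin peroxidase, PGK1 the glycolytic phosphoglycerate kinase, and URA3 an enzyme of uracil synthesis that lets the host grow on this medium.

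The inserted motifs are shown with all letters of the motif in capitals. Both constructs share motif T. The designed difference is motif H in place of the random sequences of modNTN, which are not shown.
Motif H: TTTCATTTC
Motif T: TGTACAATA
Reporter 3′ ends are counted by position from 1 at the first base after the stop codon. The native stretches are shown because most reporter ends lie at their positions in capitals plus the 27 inserted bases. With the RPS3 terminator these are mainly native positions 48 and 49, whereas the largest native ends of RPS3 are 59 and 63. They come from the RefSeq R64 assembly, plus strand, downstream of RPS3 (chrXIV:303442-303471, positions 40 to 69) and TSA1 (chrXIII:220818-220847, positions 90 to 119). Capitals mark the positions that held a median of at least 5% of native ends in the 12 cultures, which are 48, 49, 53, 54, 58, 59 and 63 of RPS3 and 100, 103, 104 and 106 of TSA1.
RPS3: aatttcttCTattCTagtGCactTaattgt
TSA1: taatgctattCacTGaCaaaacgatacact
Neither motif occurs exactly on the sense strand in the 200 bases after the stop codon of native RPS3 or TSA1. Native RPS3 has a stretch with 1 mismatch to motif T, starting at native position 32. Each other pairing of motif and gene has at least 3 mismatches. Where in the terminators the 3 insertion sites lie is not given in the sources used here, so no end is placed relative to a motif. Matches of reporter ends to native positions are therefore by number alone.

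Total counts of the 12 libraries ran from 1615145 to 3849179. No 2 replicates were near-copies, with a chi-square per degree of freedom between 2.07 and 7.21. Reads assigned to mCherry numbered 2664 to 23208, of which 2350 to 22286 in each library ended within the 200 positions. In bulk RNA, fewer cells with a plasmid and less RNA per cell cannot be told apart.

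The mean mCherry level was lower with modHTH in each context, clearly outside the libraries' spread in pRPS3-tRPS3 and within it in pPGK1-tRPS3. In pRPS3-tRPS3, mCherry had 1545 and 1456 CPM (counts scaled to a common TMM-adjusted library total) with modHTH, against 4388 and 4693 CPM with modNTN. Both modHTH libraries lay far below both modNTN libraries. The edgeR log2 fold change was −1.60 (SE 0.31, 95% interval −2.24 to −0.96), with an adjusted p of 0.134 (Benjamini-Hochberg over all 5138 features). In pPGK1-tRPS3, mCherry had 7645 and 8619 CPM with modHTH, against 13101 and 8056 CPM with modNTN. These libraries overlapped, and the edgeR log2 fold change of −0.38 (SE 0.30, adjusted p = 0.837) became 0.00426 without replicate 1 of modNTN. In pTSA1-tTSA1, mCherry had 1299 and 1325 CPM with modHTH, against 1860 and 1822 CPM with modNTN. The libraries did not overlap, with an edgeR log2 fold change of −0.49 (SE 0.31, adjusted p = 0.972).

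Averaged over the 3 contexts, mCherry had an edgeR log2 fold change of −0.82 (SE 0.18, 95% interval −1.19 to −0.46) and an adjusted p of 0.0858, which missed the threshold of 0.05. In that fit the spread was shared over all 32 reporter libraries. When only the 12 libraries entered the edgeR fit, the log2 fold change was again −0.82 with a smaller SE of 0.0903 and an adjusted p of 0.000274. In that narrower fit pRPS3-tRPS3 also passed, with an adjusted edgeR p of 6.62e-05. DESeq2 on all 32 libraries gave an adjusted p of 0.00683 for the mean and 0.000499 for pRPS3-tRPS3. With the same 12 libraries, context as a block and a single modHTH effect for all contexts, the edgeR log2 fold change was −0.82 (SE 0.16) and did not pass (adjusted p = 0.103). The call changed with the libraries, the model and the tool, while the log2 fold change of the mean was −0.82 or −0.83 in these 4 fits.

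**Figure D1:**
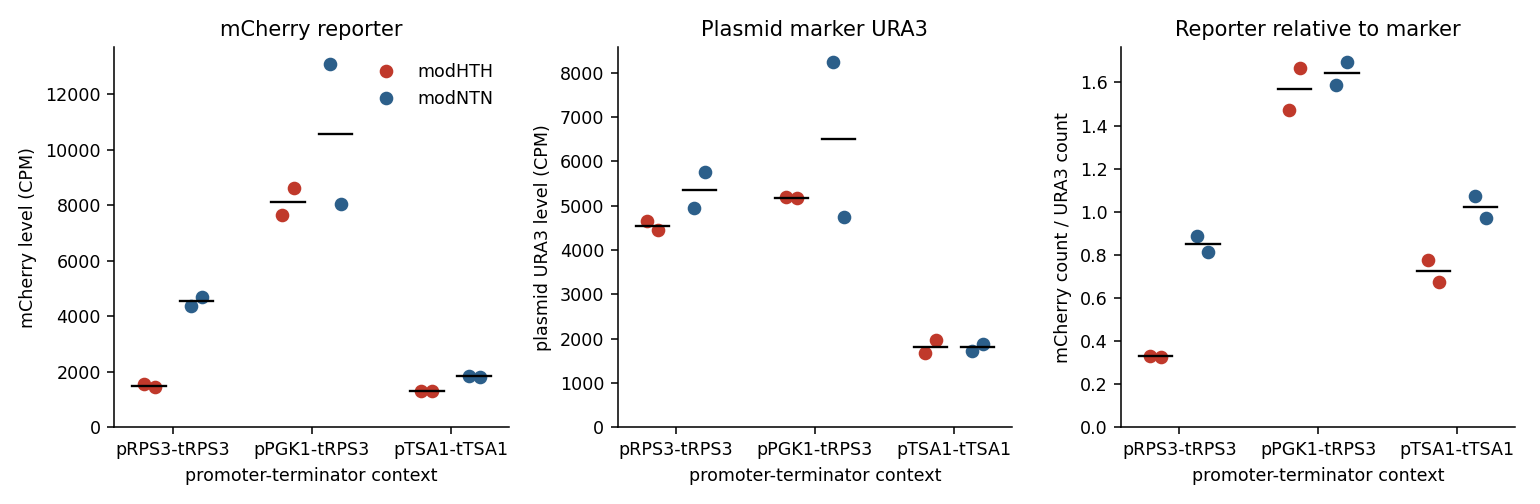
Levels per library in the 3 contexts, with modHTH in red left of modNTN in blue: mCherry in CPM, plasmid URA3 in CPM, and the ratio of their counts. Points are the 2 libraries of a construct and lines their mean. The ratio separates modHTH from modNTN in pRPS3-tRPS3 (0.331 and 0.327 against 0.885 and 0.815) and not in pPGK1-tRPS3.

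Plasmid URA3 sits on the same plasmid as the reporter and was used as an internal measure. Its mean log2 fold change was −0.18 (SE 0.18), with an adjusted edgeR p of 0.961. URA3 had 5187 and 5175 CPM with modHTH in pPGK1-tRPS3, against 8245 and 4754 CPM with modNTN. The modNTN library with high URA3 was replicate 1, which was also the one with high mCherry. The ratio of mCherry to URA3 did not show that spread.

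Relative to URA3, the reporter was lower with modHTH than with modNTN on average over the contexts. Gain of motif H and loss of the random sequences it replaces cannot be told apart in this design. In pRPS3-tRPS3 there were 0.331 and 0.327 mCherry counts per URA3 count with modHTH, against 0.885 and 0.815 with modNTN. The modHTH ratio was 0.388 times that of modNTN, a log2 difference of −1.37 (SE 0.0979, pooled over 6 degrees of freedom). In pPGK1-tRPS3 the ratios of 1.47 and 1.67 with modHTH overlapped 1.59 and 1.69 with modNTN, and the log2 difference was −0.0669 (same pooled SE). In pTSA1-tTSA1 the ratios were 0.774 and 0.674 with modHTH, against 1.07 and 0.972 with modNTN, a log2 difference of −0.50 and 0.707 times the level. The mean log2 difference over contexts was −0.64, with an exact 2-sided permutation p of 0.0185 (216 splits within contexts, smallest possible p 0.00926). Within a context, 2 libraries against 2 cannot give an exact p below 0.333. Without pRPS3-tRPS3 the mean difference was −0.28 (exact permutation p = 0.111), where the 36 splits cannot give a p below 0.0556. The permutation test did not compare the ratio's difference between contexts. With URA3 as the edgeR size factor, the mCherry effect in pPGK1-tRPS3 minus that in pRPS3-tRPS3 was 1.30 (SE 0.53). On that scale pTSA1-tTSA1 minus pRPS3-tRPS3 was 0.87 (SE 0.53), and pTSA1-tTSA1 minus pPGK1-tRPS3 was −0.43 (SE 0.53). None of these differences passed the threshold after adjustment.

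The 2 contexts with the RPS3 terminator differ in their promoter. The edgeR difference of the mCherry effects, pPGK1-tRPS3 minus pRPS3-tRPS3, was 1.22 (SE 0.43, 95% interval 0.33 to 2.11, adjusted p = 0.579). Of the alternatives run, it passed in the edgeR fit of the 12 libraries alone (adjusted p = 0.0147). The difference pTSA1-tTSA1 minus pRPS3-tRPS3 was 1.11 (SE 0.43, 95% interval 0.22 to 2.00, edgeR adjusted p = 0.999). The difference pTSA1-tTSA1 minus pPGK1-tRPS3 was −0.11 (SE 0.43), with a 95% interval from −0.99 to 0.78. These intervals are not adjusted for the number of features, unlike the adjusted p-values.

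Where reporter transcripts ended differed between modHTH and modNTN by more than between replicates in all 3 contexts. The total variation distance is the percent of ends that would have to move to turn one profile into the other. Between modHTH and modNTN it averaged 26.6% in pRPS3-tRPS3, against 4.86% between replicates. The same pair of distances was 20.9% and 4.34% in pPGK1-tRPS3, and 12.6% and 5.86% in pTSA1-tTSA1. Summed over contexts, the excess had a 1-sided exact permutation p of 0.0370, the smallest that the 27 regroupings allow. The same exact permutation test on transcripts that carry no insert gave p = 0.148 for native RPS3, 0.148 for native TSA1, 0.185 for native PGK1 and 0.667 for plasmid URA3.

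Among ends within the 200 positions, the mean lay slightly nearer to the stop codon with modHTH. With pRPS3-tRPS3, the mean end position was 70.0 and 69.5 nt in modHTH libraries, against 72.9 and 72.8 nt in modNTN libraries. In pPGK1-tRPS3 it was 71.0 and 70.9 nt with modHTH, against 71.9 and 72.1 nt with modNTN. In pTSA1-tTSA1 it was 126.4 and 126.7 nt with modHTH, against 130.7 and 130.5 nt with modNTN. Averaged over contexts the difference was −2.74 nt, with an exact 2-sided permutation p of 0.00926, the smallest possible. The median position differed by −0.50 nt (exact permutation p = 0.333). The mean over positions with at least 5% of ends differed by −0.20 nt (exact permutation p = 0.185). Ends outside the 200 positions, 18.1% and 18.6% of mCherry counts with modHTH in pTSA1-tTSA1, against 7.09% and 7.04% with modNTN, do not enter these means, and their side is not recorded, so the direction over all ends is not known there.

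With the RPS3 terminator, the share of the main end was lower with modHTH and that of its neighbour higher. In pRPS3-tRPS3, position 75 took 27.5% and 28.1% of ends with modHTH, against 39.6% and 38.7% with modNTN. Its neighbour, position 76, took 34.5% and 31.0% with modHTH, against 21.8% and 22.4% with modNTN. Together the pair held 60.5% ± 2.1 with modHTH and 61.3% ± 0.20 with modNTN (SD, n = 2 each), and the libraries overlapped. Behind the PGK1 promoter the pair lay closer together with modHTH. There position 75 took 30.6% and 32.8% with modHTH, against 39.1% and 39.8% with modNTN. Position 76 took 31.7% ± 1.7 with modHTH and 21.2% ± 1.1 with modNTN (SD, n = 2 each). The pair together held 63.4% ± 0.063 with modHTH and 60.6% ± 0.60 with modNTN (SD, n = 2 each), and the libraries did not overlap. Positions 75 and 76 equal native positions 48 and 49 plus 27 bases, the first pair of capitals in the RPS3 stretch above.

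Among upstream positions, 32, 64 and 72 held larger shares of ends with modHTH, while 61, 65 and 73 held smaller shares. Position 64 took 4.63% and 4.80% of ends with modHTH in pRPS3-tRPS3, against 0.380% and 0.492% with modNTN. In pPGK1-tRPS3 it took 4.63% and 4.79% with modHTH, against 0.242% and 0.374% with modNTN. All 4 modHTH libraries lay above all 4 modNTN libraries. Position 72 took 4.15% and 4.30% with modHTH in pRPS3-tRPS3, against 1.24% and 1.51% with modNTN. In pPGK1-tRPS3 position 72 took 5.48% and 5.40% with modHTH, against 1.75% and 1.92% with modNTN. Position 61 took 0.0325% and 0.0350% with modHTH in pPGK1-tRPS3, against 1.12% and 0.928% with modNTN. Position 65 took 0.167% and 0.181% with modHTH there, against 1.04% and 1.04% with modNTN. Both were also lower in pRPS3-tRPS3, and position 73 was lower in both contexts. Positions that stayed below 5% were chosen for mention after their values were seen.

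Position 32 held reads in modHTH libraries only. It had 49 and 61 ends with modHTH in pRPS3-tRPS3 (1.56% and 2.38%), against 0 and 0 with modNTN. In pPGK1-tRPS3 it had 206 and 197 ends with modHTH (0.956% and 1.15%), against 0 and 0 with modNTN. A count of 0 allows up to 0.0408% and 0.0379% in the modNTN libraries of pRPS3-tRPS3, and up to 0.0135% and 0.0216% in those of pPGK1-tRPS3 (3 counts per library). Against these limits the share with modHTH was at least 50.2-fold higher in pRPS3-tRPS3 and at least 60.1-fold higher in pPGK1-tRPS3. All 18 other libraries with an RPS3 terminator, unmodified and modified, held 0 ends there among 198606. These limits cover counting error only, since the reads carry no molecular identifiers. The neighbouring position 31 went the other way. It took 0.0511% and 0.0525% with modHTH in pPGK1-tRPS3, against 0.310% and 0.288% with modNTN. In pRPS3-tRPS3 it took 0% and 0.0781% with modHTH, against 0.109% and 0.202% with modNTN.

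Ends downstream of position 76 were rarer with modHTH. Positions 77 to 200 held 3.86% and 4.77% of ends with modHTH in pRPS3-tRPS3, against 14.0% and 14.2% with modNTN. In pPGK1-tRPS3 they held 4.63% and 4.41% with modHTH, against 11.6% and 12.3% with modNTN. Each of positions 80, 81, 86 and 90 was lower in both modHTH libraries of both promoters. By number they equal native positions 53, 54, 59 and 63, all in capitals in the RPS3 stretch above, plus 27 bases. Position 90 took 0.128% and 0.156% with modHTH in pRPS3-tRPS3, against 1.70% and 1.49% with modNTN. In the same 12 cultures, native RPS3 ended at position 63 in 18.0% to 22.4% of its reads and at 59 in 15.4% to 20.6%.

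Over all 200 positions, the modHTH and modNTN libraries did not overlap in their share of ends at 58 (29.0%) in pRPS3-tRPS3, 73 (36.5%) in pPGK1-tRPS3 and 61 (30.5%) in pTSA1-tTSA1. With modHTH the share was higher at 13 (6.5% of the 200) and lower at 45 in pRPS3-tRPS3, higher at 20 and lower at 53 in pPGK1-tRPS3, and higher at 33 and lower at 28 in pTSA1-tTSA1. With 2 libraries against 2 and no ties, a fraction of 0.333 of random orderings does not overlap. Ties at 0 counts make it rarer, so these counts of positions alone decide nothing. At positions 52 and 57 the share was higher with modHTH in pRPS3-tRPS3, while the libraries overlapped in pPGK1-tRPS3. Position 57 took 11.6% and 11.5% with modHTH in pRPS3-tRPS3, against 8.02% and 8.28% with modNTN. Per 1000 URA3 counts it was lower, at 36.8 and 36.3 ends with modHTH, against 67.2 and 64.2 with modNTN. In pPGK1-tRPS3 the share of position 57 overlapped, at 10.3% and 9.84% with modHTH, against 11.2% and 9.87% with modNTN.

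**Figure D2:**
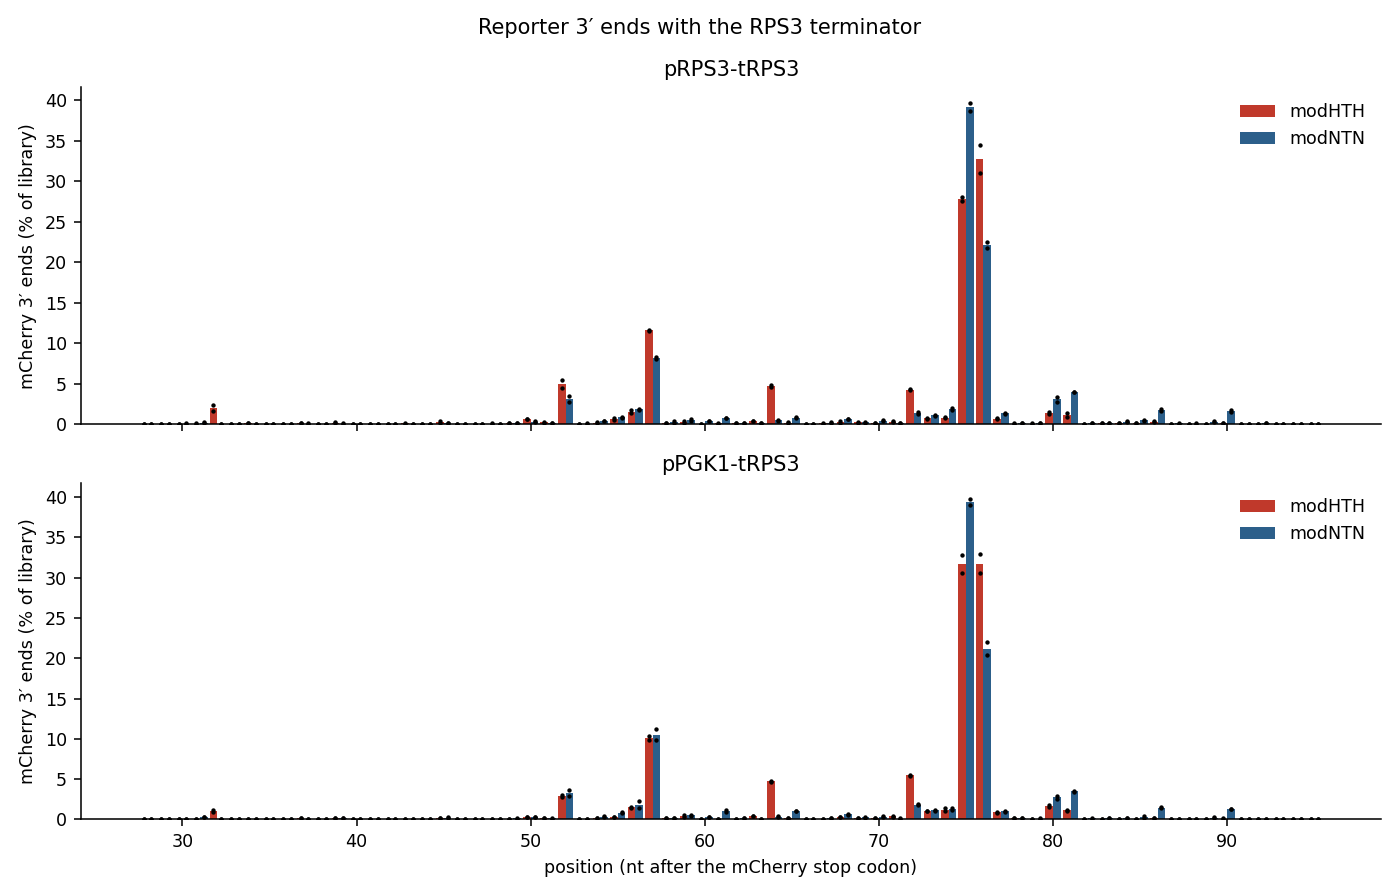
Percent of each library's mCherry 3′ ends (y axis) at each position after the stop codon (x axis, nt) with the RPS3 terminator, behind the RPS3 promoter (top) and the PGK1 promoter (bottom). Bars are means of 2 libraries, modHTH in red left of modNTN in blue, and dots are the libraries. Positions 75 and 76 shift towards 76, positions 32, 64 and 72 are higher with modHTH, and positions 61, 65 and 73 and ends beyond 77 are lower.

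Ends were also scaled to 1000 URA3 counts. In pPGK1-tRPS3, position 64 had 65.6 and 76.7 ends per 1000 URA3 counts with modHTH, against 3.70 and 6.09 with modNTN, a 14.5-fold ratio of means. Position 76 had 467 and 489 ends per 1000 URA3 counts with modHTH, against 335 and 331 with modNTN, and position 75 had 433 and 526, against 596 and 649. The total overlapped there, at 1418 and 1601 ends per 1000 URA3 counts with modHTH, against 1526 and 1628 with modNTN. In pRPS3-tRPS3 the total was 316 and 315 with modHTH, against 839 and 776 with modNTN. Position 76, whose share was higher, was lower on this scale in pRPS3-tRPS3, at 109 and 97.5 ends with modHTH, against 183 and 174 with modNTN. Position 64 was 4.24 times as frequent with modHTH, at 14.6 and 15.1 ends per 1000 URA3 counts, against 3.19 and 3.82 with modNTN. Position 75 was 0.277 times as frequent in pRPS3-tRPS3, at 87.1 and 88.4 ends per 1000 URA3 counts with modHTH, against 332 and 300 with modNTN.

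With the TSA1 terminator the profile kept its main ends and more ends lay upstream. Position 133 took 31.8% ± 0.29 of ends with modHTH and 34.9% ± 0.97 with modNTN (SD, n = 2 each). It equals native position 106 plus 27 bases, the end that took 35.4% to 40.5% of native TSA1 reads in the 12 cultures. Position 127 took 16.1% and 15.9% with modHTH, against 14.0% and 13.6% with modNTN. Position 131 took 8.43% and 8.97% with modHTH, against 7.36% and 7.51% with modNTN, while position 130 overlapped at 7.87% and 6.37% with modHTH, against 8.03% and 7.84% with modNTN. Per 1000 URA3 counts all 4 of these ends were lower with modHTH, for instance position 127 at 102 and 87.4 ends with modHTH, against 140 and 123 with modNTN, and position 131 at 53.5 and 49.2 with modHTH, against 73.4 and 67.8 with modNTN. The stretch from 61 to 100 nt, a window chosen after the values were seen, held 7.40% ± 0.052 of ends with modHTH and 1.5% ± 0.12 with modNTN (SD, n = 2 each). Per 1000 URA3 counts it held 46.7 and 40.8 ends with modHTH, against 14.1 and 14.4 with modNTN, a 3.07-fold ratio of means. No single position in it passed 1% apart from position 73, with 1.11% and 1.14% for modHTH, against 0.102% and 0.203% for modNTN. The other modified terminators of this context, labelled modNNN and modNAA, held 0.646% to 0.789% and 0.520% to 0.664% there, between modHTH and modNTN.

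**Figure D3:**
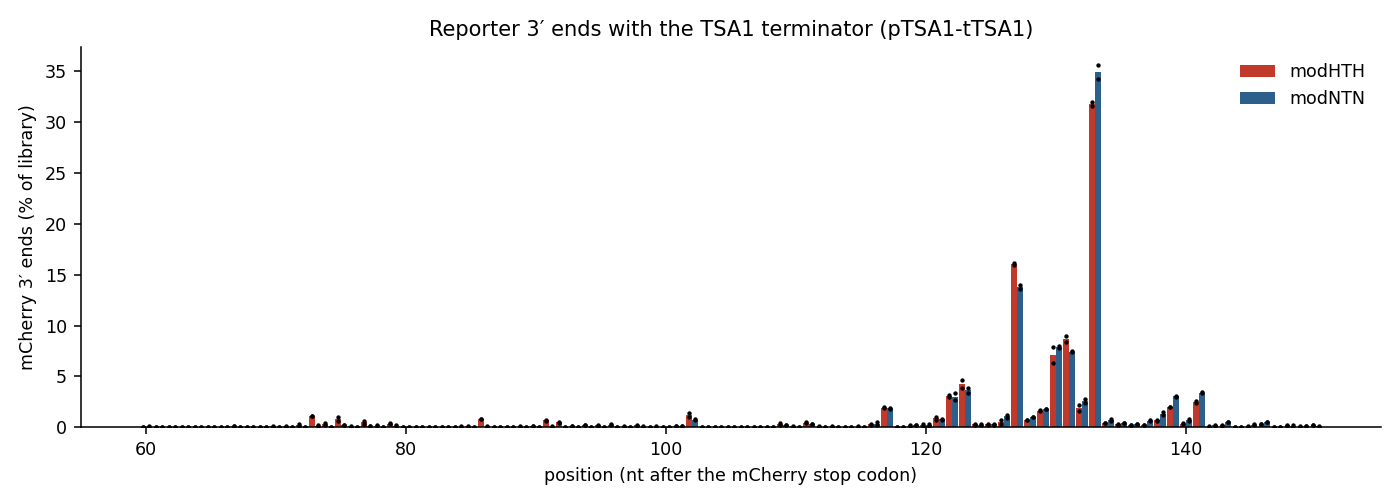
Percent of each library's mCherry 3′ ends (y axis) at each position from 60 to 150 nt after the stop codon (x axis) in pTSA1-tTSA1. Bars are means of 2 libraries, modHTH in red left of modNTN in blue, and dots are the libraries. Position 133 is the main end in both, and the spread of small ends between 61 and 100 nt is higher with modHTH (mean 7.40%) than with modNTN (mean 1.5%).

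The evenness of the profile differed in opposite directions, a contrast that was not tested. The effective number of positions, the number of equally used ends that would give the same entropy, was 7.93 and 8.62 with modHTH in pRPS3-tRPS3, against 9.62 and 9.67 with modNTN. In pPGK1-tRPS3 it was 7.81 and 7.94 with modHTH, against 9.03 and 9.66 with modNTN. In pTSA1-tTSA1 it was 15.2 and 16.0 with modHTH, against 13.8 and 14.5 with modNTN.

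Some reads counted for mCherry ended outside the 200 positions. In pTSA1-tTSA1 these were 18.1% and 18.6% of mCherry counts with modHTH, against 7.09% and 7.04% with modNTN. Per 1000 URA3 counts they came to 139.8 and 125.0 with modHTH, against 76.1 and 68.4 with modNTN. They were thus 1.83 times as frequent with modHTH, while ends inside the 200 positions were 0.621 times as frequent (634 and 549 per 1000 URA3 counts with modHTH, against 998 and 904 with modNTN). In pRPS3-tRPS3 the outside share was 4.54% and 3.90% with modHTH, against 5.25% and 4.82% with modNTN. In pPGK1-tRPS3 it was 3.79% and 3.86% with modHTH, against 3.97% and 3.89% with modNTN. URA3 itself had 29.7% to 38.1% of its counts outside its own 200 positions in the 12 libraries. Whether these mCherry reads lie upstream or downstream of the 200 positions is not recorded in the tables used here.

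**Figure D4:**
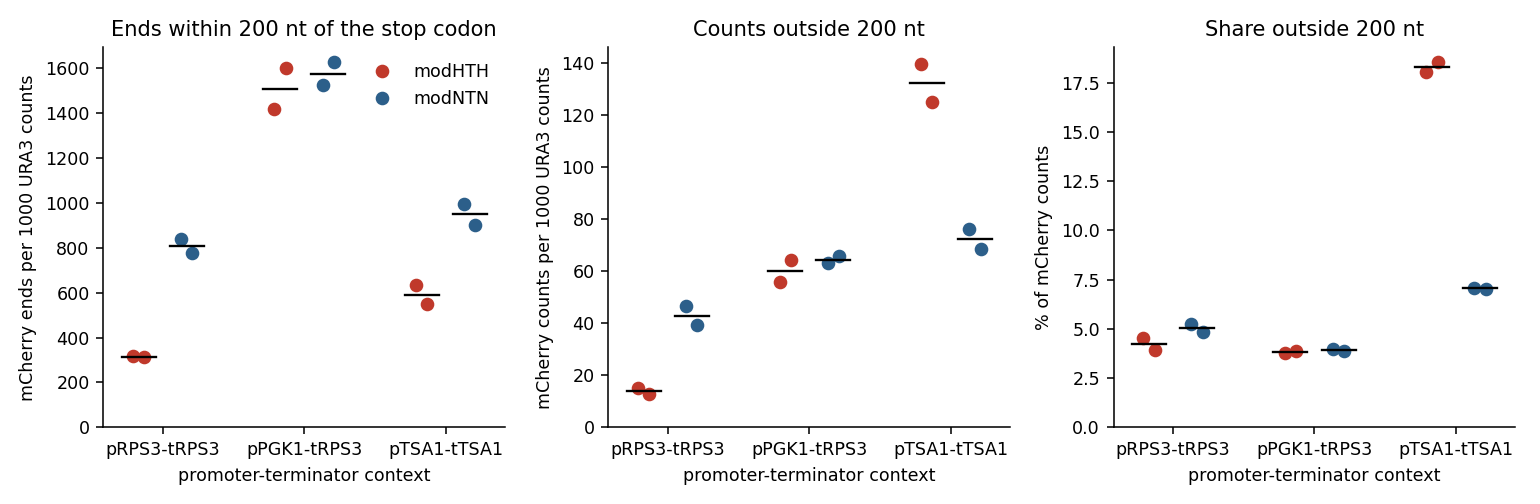
mCherry ends within 200 nt of the stop codon per 1000 URA3 counts, mCherry counts outside them per 1000 URA3 counts, and the percent of mCherry counts outside them, by context (x axis). Points are the 2 libraries of a construct (modHTH red, left; modNTN blue) and lines their mean. In pTSA1-tTSA1 the share outside is 18.1% and 18.6% with modHTH, against 7.09% and 7.04% with modNTN.

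Few host genes changed with the terminator of a plasmid reporter. Over the mean of 3 contexts, edgeR called 2 of 5136 host features (0.0389%), both higher with modHTH, and 0 lower, while 313 (6.09%) had an unadjusted p under 0.05. DESeq2 called 2 higher, MET1 and OLE1, and 0 lower, with 199 under an unadjusted 0.05. MET1, which encodes an enzyme of siroheme synthesis needed for sulfate assimilation, had a log2 fold change of 0.71 (SE 0.12, edgeR adjusted p = 0.0344). Its largest context value was in pPGK1-tRPS3, where MET1 had 77.8 and 73.1 CPM with modHTH, against 27.7 and 27.3 CPM with modNTN. BTN2, which encodes a protein of late endosome sorting and protein aggregate handling, had a log2 fold change of 0.50 (SE 0.0958, edgeR adjusted p = 0.0474), and DESeq2 did not call it. It was higher in each context, for instance at 75.3 and 74.3 CPM with modHTH in pRPS3-tRPS3, against 48.6 and 45.1 CPM with modNTN. Leaving out single libraries moved this count between 0 and 4. It was 0 without either modHTH library of any context, without replicate 2 of modNTN of any context, and with library totals in place of TMM scaling. The next genes by p did not pass by edgeR: IZH4 had a log2 fold change of 0.69 (adjusted p = 0.0543), OLE1 0.45 (adjusted p = 0.0665), PTR2 0.57 and PIK1 0.41 (adjusted p = 0.0858 for both). OLE1 encodes the fatty acid desaturase, PTR2 a peptide transporter and PIK1 a lipid kinase of the Golgi.

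Within single contexts, edgeR called 17 host features in pPGK1-tRPS3 (0.331%), 13 higher (0.253%) and 4 lower (0.0779%), with 409 (7.96%) under an unadjusted p of 0.05. In pRPS3-tRPS3 and in pTSA1-tTSA1 edgeR and DESeq2 both called 0, with 241 (4.69%) and 237 (4.61%) host features under an unadjusted edgeR p of 0.05, and 126 and 135 by DESeq2. DESeq2 called 23 in pPGK1-tRPS3. ARG3, encoding ornithine carbamoyltransferase of arginine synthesis, had 46.4 and 58.1 CPM with modHTH, against 13.5 and 20.1 CPM with modNTN (log2 fold change 1.62, SE 0.26). ARG1, encoding argininosuccinate synthetase, had 757 and 871 CPM with modHTH, against 350.0 and 347 CPM with modNTN. LYS20, encoding homocitrate synthase of lysine synthesis, had 417 and 455 CPM with modHTH, against 181 and 194 CPM with modNTN. LYS1, for the last step of lysine synthesis, had a log2 fold change of 1.09 (SE 0.19). By their log2 fold changes, the others that rose were MET1 (1.46), IZH4 (1.31), the S-methylmethionine permease gene MMP1 (1.24), the biotin transporter gene VHT1 (1.23), the purine synthesis gene ADE17 (0.98), the citrate carrier gene CTP1 (0.98), OLE1 (0.77), and 2 genes named after their values were seen, the purine-cytosine permease gene FCY2 (0.85) and the glycine decarboxylase gene GCV2 (0.78). The genes that fell were STP4 (−0.93), YLR297W (−0.96), the cell wall sensor gene MID2 (−0.88) and VEL1 (−2.23). VEL1 had 9.90 and 7.74 CPM with modHTH, against 60.4 and 24.0 CPM with modNTN.

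Leaving out any library of the context moved the count of 17 by over 1.5 times. It was 7 without replicate 1 and 6 without replicate 2 of modHTH, and 7 without replicate 1 and 4 without replicate 2 of modNTN. With the 12 libraries alone it was 74, and with library totals 11. FCY2 was the 1 gene that passed an edgeR test of the difference between contexts with all 32 libraries. Its effect in pPGK1-tRPS3 minus that in pRPS3-tRPS3 was 1.12 (SE 0.20, edgeR adjusted p = 0.0437), 1 of 5136 host features (0.0195%), with 373 (7.26%) under an unadjusted 0.05. This count was 0 with library totals and without any single library of the 12 except replicate 1 of modHTH in pRPS3-tRPS3, where it was 1, and it was 22 with the 12 libraries alone. The differences pTSA1-tTSA1 minus pRPS3-tRPS3 and pTSA1-tTSA1 minus pPGK1-tRPS3 gave 0 edgeR calls, with 179 (3.49%) and 350 (6.81%) under an unadjusted 0.05. DESeq2 called 1 host feature in the difference pPGK1-tRPS3 minus pRPS3-tRPS3, 0 in pTSA1-tTSA1 minus pRPS3-tRPS3 and 7 in pTSA1-tTSA1 minus pPGK1-tRPS3. For the last of these, edgeR called 19 with the 12 libraries alone, 2 with RLE size factors, 2 with at least 10 counts in every library and 1 with the replicate block.

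**Figure D5:**
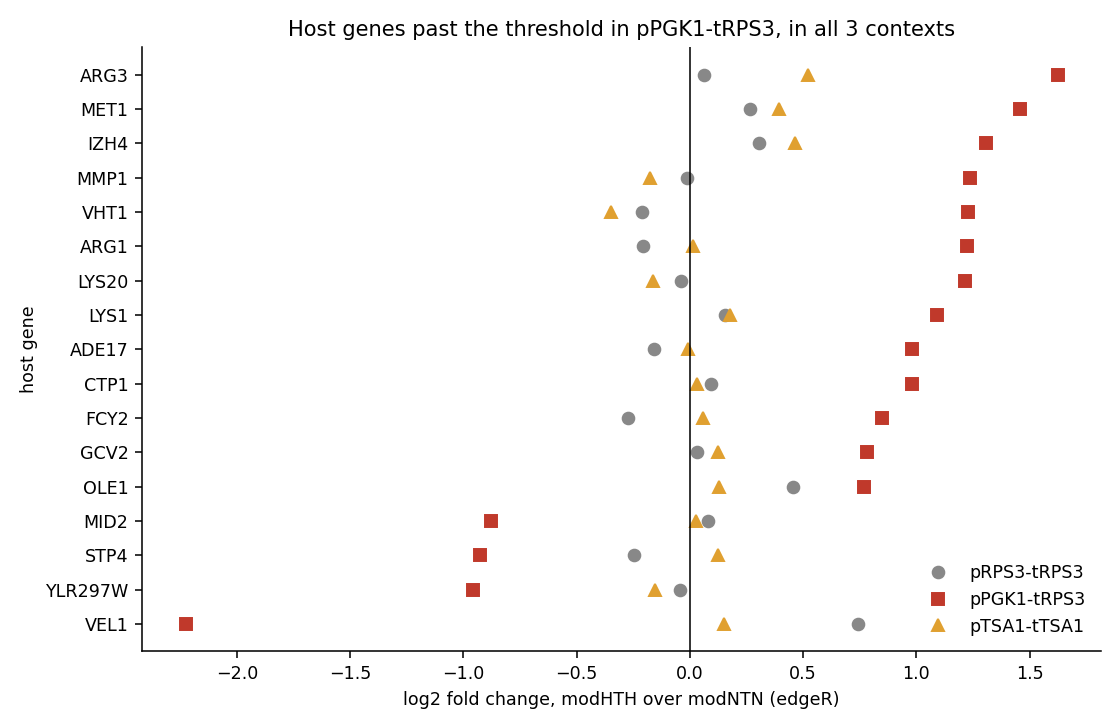
edgeR log2 fold change of modHTH over modNTN (x axis) for the 17 host genes past the threshold in pPGK1-tRPS3 (y axis), in each of the 3 contexts. Each point is a fitted value from 2 libraries against 2. ARG3 is highest at 1.62 and VEL1 lowest at −2.23 in pPGK1-tRPS3, the context by which the genes were chosen.

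The native genes whose promoters and terminators the reporters borrow gave no call. RPS3 had a mean log2 fold change of −0.11 (SE 0.10, edgeR adjusted p = 0.948), and TSA1 had 0.02 (SE 0.0729, edgeR adjusted p = 1.00). The values of TSA1 had different signs in the contexts. In pPGK1-tRPS3 it had 1120 and 1187 CPM with modHTH, against 864 and 900.4 CPM with modNTN (edgeR log2 fold change 0.39, SE 0.13, adjusted p = 0.276). In pTSA1-tTSA1 it had 1478 and 1582 CPM with modHTH, against 1741 and 1805 CPM with modNTN. PGK1 varied most between replicates, with 1174 and 4165 CPM for modHTH in pRPS3-tRPS3, against 499 and 1684 CPM for modNTN, and its mean log2 fold change was 0.13 (SE 0.54).

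Genes of RNA processing gave 0 edgeR calls in the 3 lists tested. All 7 genes of the Puf family of RNA-binding proteins were tested, 0 passed by edgeR over the mean of contexts (0 also at an unadjusted p under 0.05), and their median log2 fold change was −0.0479, beside −0.00146 over all 5136 host features, of which 0.0389% passed and 6.09% had an unadjusted p under 0.05. Among them PUF4 had −0.24 (SE 0.12, edgeR adjusted p = 0.798) and PUF6, a factor of ribosome assembly, −0.0428 (SE 0.0953). Of 24 cleavage and polyadenylation factors, 0 passed, with 3 under an unadjusted edgeR p of 0.05 (6.09% over all host features) and a median of −0.0369. The highest expressed were PAB1, the poly(A)-binding protein gene, at −0.15 (SE 0.11), GLC7, a phosphatase gene, at 0.25 (SE 0.0855, edgeR adjusted p = 0.521), and HRP1, a cleavage factor gene, at 0.0080 (SE 0.0848). Of 32 deadenylation, decapping and decay factors, 0 passed, with 2 under an unadjusted edgeR p of 0.05 (6.09% over all host features) and a median of −0.0109. XRN1, the main cytoplasmic exonuclease gene, had a log2 fold change of 0.0794 (SE 0.0675).

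Pyrimidine synthesis genes had a median log2 fold change of −0.0033. Of 12 listed, 11 were tested and 0 passed (0.0389% over all host features), with 2 under an unadjusted edgeR p of 0.05 (6.09%). Their most highly expressed member, URA2, had a log2 fold change of −0.0432 (SE 0.17). The 22 genes of the general stress response list had a median log2 fold change of 0.20 over the mean of contexts, beside −0.00146 over all host features, and 21 of 22 had a positive value, beside 2543 of all 5136 host features. By edgeR 0 passed, and 4 had an unadjusted p under 0.05, all higher, beside 179 higher and 134 lower over all host features. HSP12, a membrane-protecting heat shock gene, had 0.50 (SE 0.13, edgeR adjusted p = 0.248), and it passed in the fit of the 12 libraries alone (0.50, edgeR adjusted p = 0.00917). The list's median was 0.20 in pRPS3-tRPS3, 0.0566 in pPGK1-tRPS3 and 0.24 in pTSA1-tTSA1. This list reads the state of the cultures, and its part in the reporter differences was not tested.

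Host genes that carry the motifs after their own stop codons gave 0 edgeR calls over the mean of contexts. Motif H occurred on the sense strand in the 200 bases after the stop codon of 50 of 6459 R64 genes (0.774%), and motif T in 28 (0.434%). Of the 41 tested genes with motif H, 0 passed by edgeR, 3 had an unadjusted p under 0.05, and the median log2 fold change was −0.0130, beside 0.0389%, 6.09% and −0.00146 over all host features. In pTSA1-tTSA1 12 of the 41 had a positive and 29 a negative value, with a median of −0.13, beside 2469 and 2667 with a median of −0.0082 over all host features. The list's median was 0.0167 in pRPS3-tRPS3 and −0.0023 in pPGK1-tRPS3. Of the 25 tested genes with motif T, which both constructs carry, 0 passed, 2 had an unadjusted p under 0.05, and the median was −0.0188. In pPGK1-tRPS3 1 of the 25 genes with motif T passed, CTP1, beside 17 of all 5136 host features (0.331%).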

How the data were processed

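Gene counts and counts of 3′ ends were deposited by the authors without normalization, per the file headers and the values. The submitters' processing notes name cutadapt, HISAT2, featureCounts, SAMtools and bedtools, with builds sacCer3 and R64. Versions and roles are not given in the sources used here. Of 4818 deposited transcripts, 4672 matched a RefSeq gene, and all 4672 contain its R64 ORF, and 5550 of 5698 features matched a locus tag. Of the series' samples, 34 have count columns, and 12 without were not analysed here. There were 0 unmapped columns of per-sample values.

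The quasi-likelihood test of edgeR 4.0.16 was run in R 4.3.3 on the counts of 32 reporter libraries. Each construct had its own coefficient, low features were removed by filterByExpr, and totals were scaled by TMM. Adjusted p is by Benjamini-Hochberg over 5138 features, and a call needs one under 0.05. CPM uses the TMM-adjusted total. The mCherry count is that of the plasmid's primary transcript. On simulated counts, 98% of 200 genes changed by 1 on the log2 scale were recovered among 5094 for the mean over contexts (9 false calls), and 86% for pRPS3-tRPS3 (7 false calls). The changed genes were drawn only from those with higher mean counts, and all 200 changed at once. Counts followed the fitted negative binomial model. These shares therefore do not give the power to find a few changed genes or weakly expressed ones.

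Ratios and end positions were tested by exact permutation of libraries within contexts. Named host genes were the 10 that rose and 10 that fell most among calls with every modHTH library on one side of the modNTN mean, or the 6 of smallest p, and of each list its most highly expressed members. Named end positions had at least 5% of ends, and those below 5% were named after their values were seen. Members were taken by their labels, and earlier results of these data were known when members, lists and windows were chosen. Alternatives were RLE size factors, library totals, URA3 as size factor, 2 other filters, the 12 libraries alone, context or replicate number as a block, DESeq2 1.42.0, and each library left out.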

Additional observations from a re-analysis of the deposited data

Results flagged for a closer look

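These results were singled out because every library of one context lay one way and every library of another the opposite way, or, for FCY2, because the difference passed a test. Except for TSA1 and FCY2, the difference between contexts was not tested. Differences are modHTH minus modNTN. The share of mCherry counts outside the 200 positions differed by 11.2 percentage points in pTSA1-tTSA1, by −0.813 in pRPS3-tRPS3 and by −0.109 in pPGK1-tRPS3. Per 1000 URA3 counts it differed by 60.1 in pTSA1-tTSA1 and by −29.0 in pRPS3-tRPS3. URA3's own share outside its 200 positions differed by −1.61 percentage points in pTSA1-tTSA1, 0.993 in pRPS3-tRPS3 and 2.30 in pPGK1-tRPS3. The effective number of end positions differed by 1.46 in pTSA1-tTSA1, −1.37 in pRPS3-tRPS3 and −1.47 in pPGK1-tRPS3. Native TSA1 differed by 272 CPM in pPGK1-tRPS3, −112 CPM in pRPS3-tRPS3 and −243 CPM in pTSA1-tTSA1. By edgeR its log2 effect in pPGK1-tRPS3 minus that in pRPS3-tRPS3 was 0.52 (adjusted p = 0.557), and that in pTSA1-tTSA1 minus that in pPGK1-tRPS3 was −0.60 (adjusted p = 0.381), so neither passed. For FCY2 the difference of log2 effects, pPGK1-tRPS3 minus pRPS3-tRPS3, was 1.12 and passed edgeR's test at an adjusted p of 0.0437. The count of features passing that contrast, 1, was 0 with library totals and in all fits that left out a library except the one without replicate 1 of modHTH in pRPS3-tRPS3.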

How the results depend on the processing

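Of 286 recomputed values over 15 results, 251 kept their direction and, where a p-value was computed, their side of the threshold, or for counts stayed within 1.5 times. The 12 profile distances with a library left out had no p-value and kept their direction. Results that missed the threshold both times count as kept. With only the 12 libraries, the log2 change of mCherry was −0.82 for the mean and −1.60 in pRPS3-tRPS3, both passing, the difference pPGK1-tRPS3 minus pRPS3-tRPS3 was 1.22 and passed, and host calls were 6 for the mean and 74 in pPGK1-tRPS3. DESeq2 gave −0.83 for the mean and −1.61 in pRPS3-tRPS3, both passing. Library totals gave −1.61 in pRPS3-tRPS3, passing, turned pTSA1-tTSA1 minus pPGK1-tRPS3 to 0.0425, and left 0 host calls for the mean and 11 in pPGK1-tRPS3. With context as a block in the 12 libraries, 0 host genes passed, and the mCherry mean was −0.82 (edgeR adjusted p = 0.103). URA3 as the size factor moved the mCherry mean to −0.64 (SE 0.22, edgeR adjusted p = 0.996), which did not pass. The cause of these moves was not tested. Leaving out a context, chosen after seeing the data, gave mean log2 ratios of −0.28 without pRPS3-tRPS3, −0.93 without pPGK1-tRPS3 and −0.72 without pTSA1-tTSA1, where 36 splits cannot pass. The shift in end position was −0.50 nt by the median and −0.20 nt over positions with at least 5% of ends, neither passing.

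Leaving out single libraries gave 0 to 4 host calls for the mean and 4 to 17 in pPGK1-tRPS3, −0.68 to 0.00426 for mCherry in pPGK1-tRPS3, and −0.49 to 0.20 for pTSA1-tTSA1 minus pPGK1-tRPS3. The mean ratio stayed between −0.68 and −0.61, and the mean shift in end position between −2.83 and −2.65 nt.

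Deviations of same-numbered libraries correlated at 0.378 in pRPS3-tRPS3, 0.271 in pPGK1-tRPS3 and −0.0111 in pTSA1-tTSA1, so pairing is undecided with the RPS3 terminator and not seen in pTSA1-tTSA1, and no block was used in the values reported first. With the replicate block, edgeR gave −0.80 for the mCherry mean (adjusted p = 0.0552) and 4 host calls, and the exact permutation p was 0.0313 for the ratio and for the end position, the smallest of 64 sign flips. Shares rest on 2350 ends in the shallowest library, and 2 libraries a construct limit every within-context statement.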
